A study of Homo sapiens and Mus musculus with 21 samples.

Results

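The 8 genes described here are the NOTCH receptor genes NOTCH1, NOTCH2 and NOTCH3 and 5 genes that NOTCH signalling directly activates in T cells: HES1, HES4, DTX1, NRARP and PTCRA. They were chosen by name, 8 of the 19848 genes in the hairpin expression table. That table held 6 of them, the ciclopirox table of 23037 genes held 7, and the thymus matrices held 7 under their mouse symbols, since HES4 has no mouse gene. NRARP was not analysed in the human tables and PTCRA was not analysed in the hairpin table.

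A NOTCH receptor that binds a Delta or Jagged ligand on a neighbouring cell is cut by an ADAM protease and then by gamma-secretase. The freed intracellular part enters the nucleus, joins the DNA-binding protein RBPJ and a MAML coactivator, and switches target genes on. In the thymus this pathway commits progenitors to the T lineage and falls silent as thymocytes mature past the pre-T cell receptor stage, and activating NOTCH1 lesions are frequent in T-cell acute lymphoblastic leukemia (T-ALL).

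The study concerned DHX15, a DEAH-box RNA helicase of splicing and ribosome assembly. Human samples were of CUTLL1, an established T-ALL line in which a translocation joins NOTCH1 to the T cell receptor beta locus, so expression of NOTCH1 here is that of this 1 line. CUTLL1 cells carried a lentiviral hairpin against GFP (shGFP, the control), shDHX15-1 or shDHX15-2, with 3 libraries each, or were exposed to the solvent DMSO or to 5 µM ciclopirox, an antifungal iron chelator, with 3 libraries each. RNA bound to DHX15 in CUTLL1 was pulled down with an antibody (RIP) and summarised by the authors as 1 peak list. The RIP samples were 2 DHX15 libraries, 1 IgG library and 1 input library. All thymocytes of mice 6 weeks old, either Dhx15fl/fl (flox, the control) or Dhx15 KO, gave 1 single-cell library each; neither the Cre driver nor the number of mice is stated.

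HES1 and HES4 encode related basic helix-loop-helix repressors, and the stretch before their start sites is shown because they carry the RBPJ core motif and the pair responded differently to the hairpins. Each line gives the 120 bases upstream of the RefSeq start (GRCh38.p14), 5′ to 3′ on the gene's strand, with every TGGGAA in capitals. HES1 lies on the plus strand (chr3:194136028-194136147) and HES4 on the minus strand (chr1:1000098-1000217).
HES1: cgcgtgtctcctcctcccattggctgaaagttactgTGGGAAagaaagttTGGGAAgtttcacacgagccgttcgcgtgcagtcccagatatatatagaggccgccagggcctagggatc
HES4: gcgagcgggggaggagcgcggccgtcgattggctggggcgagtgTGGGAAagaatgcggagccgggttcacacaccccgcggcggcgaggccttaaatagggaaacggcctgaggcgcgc
The first bases of the HES1 matches lie at positions -84 and -70 from the start, and that of the HES4 match at -76. In both genes 1 match extends to GTGGGAA, which contains TGGGAA. Searched on both strands in the 250 bases upstream, TGGGAA occurs in 20.8% and GTGGGAA in 5.43% of 35116 RefSeq promoters. The windows of NOTCH1, NOTCH2, NOTCH3, NRARP and PTCRA hold neither string, and DTX1 was not matched. A match is a string of letters, not evidence of binding.

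The hairpin libraries held 59507040 to 62432503 reads in listed genes, and the ciclopirox experiment 32451469 to 37177509. DHX15 itself was at 42.8 to 44.1 RPKM (reads per kilobase of gene, scaled to library depth) with shGFP and at 16.1 to 17.3 with the DHX15 hairpins. The first DMSO library stood apart: its counts differed from those of the other 2 by a chi-square of 38.2 and 39.1 per degree of freedom, against 3.44 between those 2. The ciclopirox libraries also differed among themselves, by 14.3, 14.3 and 27.5, where pairs within a hairpin group gave 2.72 to 6.93. Among T cell markers with shGFP, CD3E was at 135 to 144 RPKM, CD7 at 55.3 to 58.4 and CD8A at 26.2 to 27.2, while CD4 was lower, with a mean of 2.25. CD79A, usually a B cell gene, was at 23.6 to 24.8 RPKM with shGFP and reached 57.9 to 59.6 with shDHX15-2; its part in the hairpin results was not tested. CD14, COL1A1 and EPCAM had normalised counts of 0 to 19.3 in the ciclopirox experiment. In bulk RNA, fewer cells of a kind and less RNA per cell cannot be told apart.

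Both DHX15 hairpins were followed by more receptor RNA and more DTX1 RNA but less HES1 RNA. NOTCH3 rose 3.14-fold with shDHX15-1 and 1.63-fold with shDHX15-2, and HES1 fell to 0.450 and 0.286 of its shGFP level (ratios of mean RPKM, n = 3 libraries per group). HES4 rose 4.57-fold with shDHX15-1, while with shDHX15-2 it had a ratio of 1.324 that did not pass the test. All tests in the hairpin experiment are limma fits on log2(RPKM + 1), which understates changes of low genes. Adjusted p-values are Benjamini-Hochberg values over all 15022 genes tested, two-sided.

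With shDHX15-1, 5 of the 6 measured genes were called higher and 1 lower at an adjusted p under 0.05, where 45.4% of all genes tested were called higher and 28.9% lower. With shDHX15-2, 4 were called higher and 1 lower, against 35.6% and 30.1% of all genes. For the mean of both hairpins 5 were higher and 1 lower, against 42.6% and 30.2%. Most genes passed in one direction or the other, so the counts alone do not set these genes apart. The median log2 difference of the 6 was 0.63 with shDHX15-1 and 0.33 with shDHX15-2, against 0.09 and 0.03 over all genes. Centring each library on its median moved the median of all genes with shDHX15-1 from 0.09 to -0.02, and the share of calls that were higher from 61.1% to 46.0%. For the mean of both hairpins that share moved from 58.5% to 46.2%. No gene of the 6 changed direction under any scaling that was tried.

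Among the receptors, NOTCH1, the one most often activated in T-ALL, had RPKM values of 33.5, 33.8 and 34.7 with shGFP, 53.2, 52.8 and 53.3 with shDHX15-1, and 42.6, 43.3 and 43.0 with shDHX15-2. Every library with a DHX15 hairpin lay above every control library, and those with shDHX15-1 above those with shDHX15-2. The log2 difference was 0.63 with shDHX15-1 (SE 0.0184, limma adjusted p = 9.17e-09) and 0.33 with shDHX15-2 (adjusted p = 7.74e-07). The table gives 1 value for NOTCH1 and does not separate a transcript of the translocated allele from one of the intact allele.

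NOTCH2 had RPKM values of 4.85, 5.18 and 4.81 with shGFP, 6.202, 5.93 and 6.23 with shDHX15-1, and 6.07, 6.31 and 6.39 with shDHX15-2. The control libraries were the lowest, and the libraries of the hairpins overlapped each other. The log2 difference was 0.26 (SE 0.0353, limma adjusted p = 0.000130) and 0.29 (adjusted p = 9.54e-05). Near-identical NOTCH2NL copies share sequence with the start of NOTCH2, so the division of reads among them is uncertain.

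NOTCH3, itself a gene that NOTCH1 activates in T-ALL cells, had RPKM values of 2.97, 2.88 and 3.01 with shGFP, 9.04, 9.38 and 9.37 with shDHX15-1, and 4.87, 4.82 and 4.78 with shDHX15-2. The groups were fully separated and shDHX15-1 was the highest. On the log2 scale NOTCH3 rose by 1.38 (SE 0.0281, limma adjusted p = 1.39e-09) and 0.56 (adjusted p = 4.17e-07).

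Among the targets, DTX1, a ubiquitin ligase of the Deltex family that acts on NOTCH receptors, had RPKM values of 63.4, 59.1 and 64.2 with shGFP, 96.4, 96.3 and 98.2 with shDHX15-1, and 140.0, 138.7 and 137.2 with shDHX15-2. Here the order of the hairpins was the reverse of that for NOTCH1 and NOTCH3. DTX1 rose by 0.63 on the log2 scale (SE 0.0294, limma adjusted p = 1.32e-07) with shDHX15-1 and by 1.14 with shDHX15-2 (adjusted p = 9.17e-09).

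HES1, a repressor widely used as a readout of NOTCH activity, had RPKM values of 7.43, 6.16 and 6.25 with shGFP, 2.88, 3.01 and 3.05 with shDHX15-1, and 1.98, 2.07 and 1.62 with shDHX15-2. It was the 1 gene of the 6 that fell, and every control library lay above every knockdown library. The log2 difference was -0.93 (SE 0.0761, limma adjusted p = 4.37e-06) with shDHX15-1 and -1.40 (adjusted p = 6.59e-07) with shDHX15-2. Between 206 and 921 recovered reads stood behind each HES1 value.

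HES4, the related repressor without a mouse counterpart, had RPKM values of 3.67, 2.27 and 3.21 with shGFP, 16.2, 11.2 and 14.5 with shDHX15-1, and 4.57, 3.83 and 3.71 with shDHX15-2. The shDHX15-1 libraries were far above the rest, and the shDHX15-2 libraries lay just above the highest control. HES4 rose by 1.88 on the log2 scale with shDHX15-1 (SE 0.153, limma adjusted p = 4.32e-06). With shDHX15-2 the difference was 0.33 (95% interval -0.02 to 0.68, adjusted p = 0.0890). Without the first shGFP library, the highest of its group, it was 0.44 (adjusted p = 0.0419), and edgeR's quasi-likelihood test on recovered reads gave 0.38 (adjusted p = 0.0326).

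**Figure D1:**
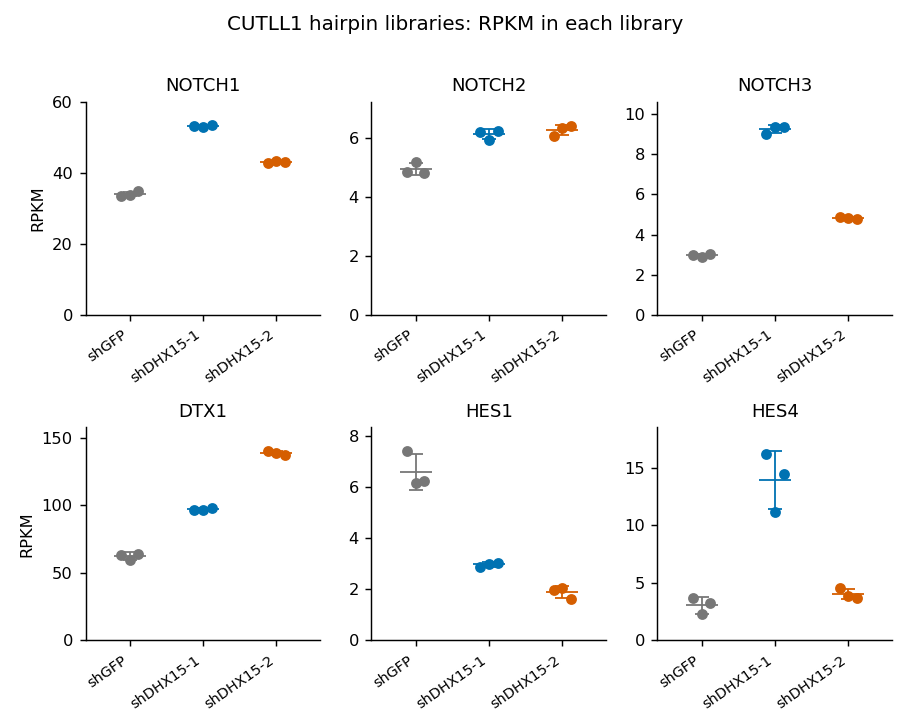
RPKM of the 6 genes of the hairpin table in each CUTLL1 library, as points, with the mean and SD of the 3 libraries of each group. NOTCH1, NOTCH2, NOTCH3 and DTX1 were higher and HES1 lower with both DHX15 hairpins, while HES4 stood out with shDHX15-1, at 11.2 to 16.2 RPKM.

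Per length of gene, the order in control cells was DTX1, NOTCH1, HES1, NOTCH2, HES4 and NOTCH3, with mean levels of 62.2, 34.0, 6.61, 4.95, 3.05 and 2.95 RPKM. HES4 and NOTCH3 overlapped there, and the other neighbours did not. With shDHX15-1 the order below NOTCH1 was HES4, NOTCH3, NOTCH2 and HES1, from 13.9 down to 2.98 RPKM. With shDHX15-2 it was NOTCH2, NOTCH3, HES4 and HES1, from 6.26 down to 1.89 RPKM. DTX1 and NOTCH1 stayed the highest 2 of the 6 in every group, and HES1 became the lowest with either hairpin.

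The hairpins lowered DHX15 to similar levels, with a log2 difference between them of -0.04 (95% interval -0.10 to 0.02, limma adjusted p = 0.200), yet 5 of the 6 genes differed between them. Called as shDHX15-2 against shDHX15-1, 1 gene was higher and 4 lower, where 23.2% of all genes tested were higher and 37.9% lower. After centring on the median the share of higher calls over all genes moved from 38.0% to 54.1%. HES4 had the widest gap, at -1.56 (SE 0.153, limma adjusted p = 3.30e-05), followed by NOTCH3 at -0.82 (adjusted p = 9.32e-08). HES1 differed by -0.46 (adjusted p = 0.000704) and NOTCH1 by -0.30 (adjusted p = 2.16e-06). DTX1 differed the other way, by 0.51 (adjusted p = 1.51e-06). NOTCH2 differed by 0.03, with a 95% interval of -0.05 to 0.11 (limma adjusted p = 0.527). It passed at 0.10 by edgeR, by DESeq2 and after quantile normalisation, with adjusted p-values of 0.00910, 0.0113 and 0.0395.

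Ciclopirox gave another combination of the same genes. NOTCH3 rose 2.76-fold, HES4 3.48-fold and HES1 1.63-fold over DMSO, and NOTCH1, NOTCH2 and DTX1 were called lower, at 0.847, 0.704 and 0.813 of the DMSO level (ratios of mean normalised counts, n = 3 libraries per group). PTCRA went from 0 to 5 reads per library with DMSO to 17 to 20 with ciclopirox. PTCRA passed the filter on low values only through the treated libraries, so it had to differ and is left out of the count. Of the other 6 genes, 3 were called higher and 3 lower by limma on log2(normalised count + 1), where 23.5% of 16825 genes tested were called higher and 25.0% lower. The median log2 difference of these 6 was 0.24, against -0.02 over all genes. DHX15 itself fell from 14498 to 16688 normalised counts with DMSO to 8967 to 10216 with ciclopirox.

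NOTCH1 had normalised counts of 15506, 14666 and 14985 with DMSO and 11964, 13383 and 12878 with ciclopirox. The groups did not overlap, but the log2 difference was -0.24 (SE 0.0825) with a limma adjusted p = 0.0314 that depended on single libraries. Leaving out DMSO library 2 or 3 gave adjusted p-values of 0.0768 and 0.0918, and leaving out ciclopirox library 1 or 3 gave 0.132 and 0.0701. After quantile normalisation the sign turned, to 0.08 (limma adjusted p = 0.331), and without the filter on low values the adjusted p was 0.0521.

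NOTCH2 had normalised counts of 2803, 3417 and 3265 with DMSO and 1858, 2391 and 2423 with ciclopirox. Each treated library was below each control library, and the log2 difference was -0.51 (SE 0.125, limma adjusted p = 0.00607). NOTCH3 had 767, 642 and 695 with DMSO and 1955, 2105 and 1747 with ciclopirox. It showed the clearest separation of the receptors, at 1.46 (SE 0.116, limma adjusted p = 4.37e-06).

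DTX1 had normalised counts of 26033, 22574 and 22514 with DMSO and 19323, 20731 and 17778 with ciclopirox. The log2 difference was -0.30 (SE 0.0947, limma adjusted p = 0.0230). It did not pass without ciclopirox library 1 or 3 (adjusted p = 0.0683 and 0.0939) or after quantile normalisation (-0.14, adjusted p = 0.0795).

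HES1 had normalised counts of 71.2, 110.3 and 112 with DMSO and 172, 143 and 164 with ciclopirox. All treated libraries were higher, and the log2 difference was 0.72 (SE 0.222, limma adjusted p = 0.0196). Without the first ciclopirox library the adjusted p was 0.0757, and after quantile normalisation the difference was 0.46 (adjusted p = 0.0979).

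HES4 had normalised counts of 273, 141 and 163 with DMSO and 663, 834 and 508 with ciclopirox. Its difference of 1.82 (SE 0.249, limma adjusted p = 0.000166) passed under every alternative tried, as did those of NOTCH2 and NOTCH3. PTCRA, which encodes the pre-T cell receptor alpha chain, had 0, 2.98 and 5.11 with DMSO and 16.2, 18.9 and 16.3 with ciclopirox. No more than 20 reads stood behind any of its values. Its log2 difference was 2.64 (95% interval 0.97 to 4.31, limma adjusted p = 0.0141) 1.12 with a pseudocount of 10, and 1.88 without the first DMSO library. With any ciclopirox library left out it was no longer tested.

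Without the first DMSO library, which stood apart from the others, the 6 genes other than PTCRA were still called, at -0.22 for NOTCH1, -0.60 for NOTCH2, 1.53 for NOTCH3, 0.51 for HES1, 2.10 for HES4 and -0.23 for DTX1. The authors' deposited table lists log2 fold changes of -0.24 for NOTCH1, -0.51 for NOTCH2, 1.47 for NOTCH3, 0.70 for HES1, 1.80 for HES4, -0.30 for DTX1 and 2.64 for PTCRA.

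**Figure D2:**
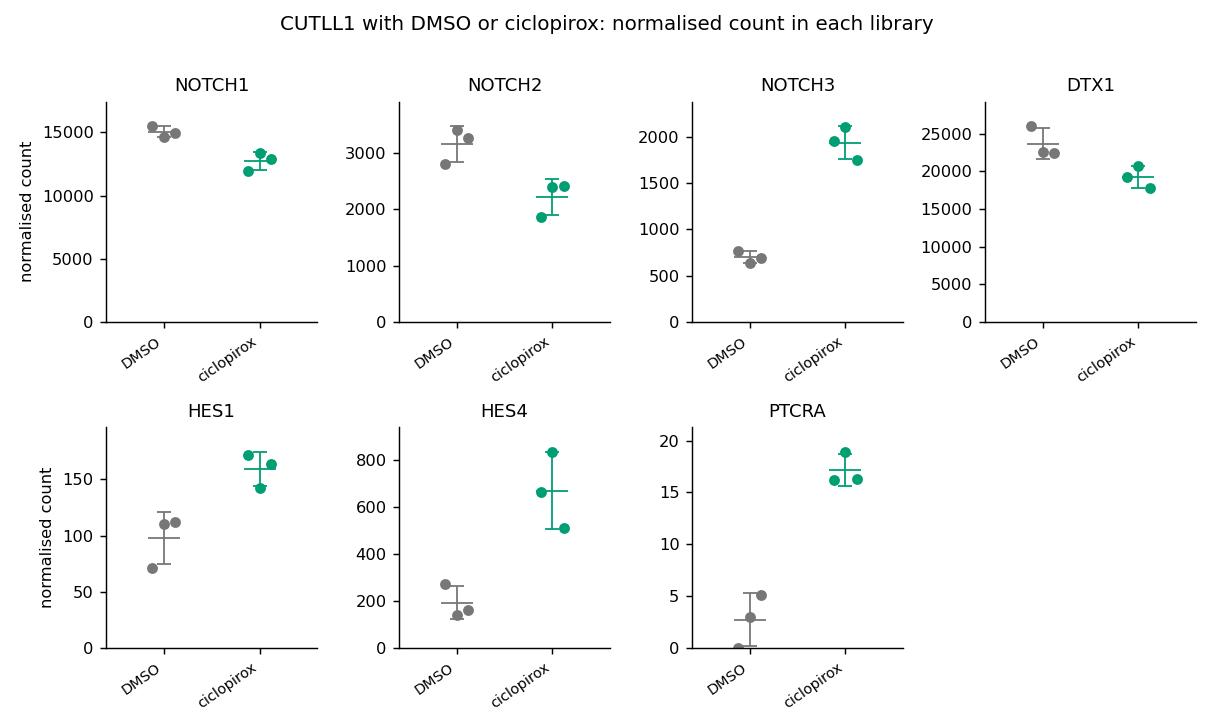
Normalised count of the 7 genes of the ciclopirox table in each CUTLL1 library, as points, with the mean and SD of the 3 libraries of each group. NOTCH3, HES1 and HES4 were higher with ciclopirox, and NOTCH1, NOTCH2 and DTX1 lower, although the sign for NOTCH1 turned after quantile normalisation. PTCRA was also higher, but it passed the filter on low values only through the treated libraries.

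Set side by side, NOTCH3 was higher after each hairpin and after ciclopirox, at 1.38, 0.56 and 1.46. HES1 went down with the hairpins (-0.93 and -1.40) and up with ciclopirox (0.72). NOTCH1 (0.63, 0.33 and -0.24), NOTCH2 (0.26, 0.29 and -0.51) and DTX1 (0.63, 1.14 and -0.30) went the opposite way to HES1 in each experiment, the NOTCH1 sign with ciclopirox being that before quantile normalisation. The experiments had separate controls and tables, and the difference between them was not tested.

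**Figure D3:**
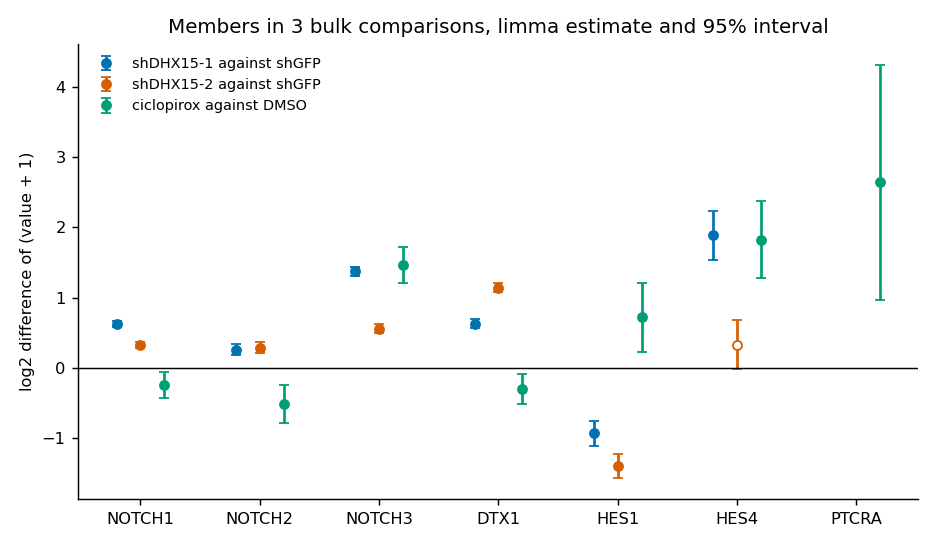
Log2 difference of (value + 1) from the control group for each gene, with the 95% interval of the limma fit; filled points were called and the open point (HES4 with shDHX15-2) was not. NOTCH3 lies above 0 in all 3 comparisons, while HES1 lies below 0 with the hairpins and above 0 with ciclopirox; the NOTCH1 value with ciclopirox turned to 0.08 after quantile normalisation.

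The rest of the pathway was described with a list of 61 genes grouped by role. Over the hairpin mean 44 were tested, of which 17 (38.6%) were called higher and 15 (34.1%) lower. These shares were near those of all genes, 42.6% and 30.2%. With ciclopirox 50 were tested, including HEYL and NEURL1, which passed the filter on low values through 1 group only. Of the other 48, 10 were higher and 16 lower, where 23.5% and 25.0% of all genes were. The counts by role that follow are small and stand beside these same shares of all genes. Of the genes that modify receptor sugars, 2 were higher and 2 lower of 5 for the hairpin mean, and 1 was higher and 3 lower with ciclopirox. LFNG, a Fringe glycosyltransferase that alters which ligands a receptor answers, rose in both experiments, by 0.71 and 1.87 on the log2 scale. MFNG, another Fringe gene, fell by 0.54 and 0.76 (limma adjusted p = 2.55e-07 and 0.000465).

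Of 7 ADAM protease and gamma-secretase genes tested for the hairpin mean, 4 were higher and 2 lower; with ciclopirox 2 of 6 were higher and none lower. NCSTN, the gamma-secretase subunit nicastrin, rose by 0.42 and 0.33. Of the ligands, DLL1 rose with ciclopirox, from 9.94 to 18.4 normalised counts to 25.8 to 50.1, and DLL3 fell from 53.2 to 104 down to 23.95 to 40.7. Of the turnover genes 2 were higher and 4 lower of 8 for the hairpin mean, and 4 higher and 3 lower of 9 with ciclopirox, NEURL1 apart. AAK1, a kinase of endocytosis, fell by 0.31 and 0.72. DTX2, a relative of DTX1, fell by 0.11 with the hairpins and rose by 0.62 with ciclopirox.

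In the nuclear complex 3 of 7 were higher and 1 lower for the hairpin mean, and 1 of 8 was higher with ciclopirox. RBPJ, the DNA-binding partner of NOTCH, had RPKM values of 8.25, 8.07 and 8.41 with shGFP and 13.0, 14.4 and 14.2 with shDHX15-1, but 8.26, 8.58 and 8.57 with shDHX15-2. RBPJ rose by 0.68 with shDHX15-1, was at 0.04 with shDHX15-2, and differed between the hairpins (limma adjusted p = 1.89e-06). With ciclopirox RBPJ had a difference of 0.11 (limma adjusted p = 0.456). KAT2B, an acetyltransferase coactivator, rose by 0.98 for the hairpin mean and by 1.69 with ciclopirox.

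Of 9 RBPJ corepressor genes, 3 were higher and 1 lower for the hairpin mean, and 1 higher and 4 lower with ciclopirox; SPEN fell by 0.12 and 0.39. Among other targets reported in T cells, 3 of 8 were higher and 5 lower for the hairpin mean, where 42.6% and 30.2% of all genes were. With ciclopirox none of 8 was higher and 5 were lower, HEYL apart, where 23.5% and 25.0% of all genes were. MYC, the growth regulator that NOTCH1 drives in T-ALL, fell by 0.73 for the hairpin mean and by 2.33 with ciclopirox (limma adjusted p = 3.33e-09 and 8.41e-08). SHQ1, an assembly factor of box H/ACA ribonucleoproteins, fell by 1.02 and 1.37, and GATA3, a T lineage factor, by 0.48 and 0.75. HEYL, a relative of HES1, was at 0 to 6.14 normalised counts with DMSO and 19.2 to 24.6 with ciclopirox, and its call was set by the filter as for PTCRA.

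Genes whose pattern was most like that of each of the 6 genes were sought over the 15 bulk libraries, by the Euclidean distance of log2 values centred on the control group of each experiment, among 10659 genes tested in both. GNB3 was nearest to NOTCH1, at a distance of 0.206, followed by DDX42 and APOL3. TRIM69 was nearest to NOTCH2 (0.249), with RAD54B and CREBZF next. TMEM63A was nearest to NOTCH3 (0.360), then MKNK2 and FAM162A. For HES1 the nearest were SLC40A1 (1.02), SLC7A5 and GPR3, and for DTX1 SUSD4 (0.441), GIMAP6 and VIPR2. HES4 was followed by ENO2 (1.28), IZUMO4 and NOTCH3 itself (1.42). By this distance HES1 and HES4 had no neighbour as close as those of the receptors. The distance includes the scatter among libraries of a group, whose part was not tested.

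The RIP peak list held a peak in 1 of the 8 genes, HES4, where 23.6% of genes past the hairpin filter and matched to RefSeq held one. NRARP and PTCRA were not analysed in the hairpin table and are not part of that share. The HES4 peak (chr1:998961-999982, minus strand) covers 89.9% of the gene, which RefSeq places at chr1:998964-1000097 on the same strand. The authors give it a fold enrichment of 2.02 and a false discovery rate of 6.13e-16; the median fold over all 4499 peaks was 1.65. The gene is 1134 and the peak 1022 bases long. NOTCH1 (chr9:136494433-136546048), DTX1 (chr12:113056730-113098025), HES1 (chr3:194136148-194138732), NOTCH2, NOTCH3, NRARP and PTCRA held none. In the wider pathway 15 of 61 genes held a peak, among them LFNG, MFNG, KAT2B and GATA3. Of the 61, 44 passed the hairpin filter. The list carries no build in its header; gene spans of GRCh38.p14 contained 92.2% of its peaks, and 94.8% of those inside a single coding gene with known strand lay on that gene's strand.

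In mouse thymus, the libraries had 9434 flox and 8484 KO barcodes, of which 17 were shared, and 8818 and 7261 cells were kept, with medians of 3710 and 7197 UMIs. With 1 library per genotype there is no test: ratios carry exact intervals that cover counting error only. Cells were clustered without the NOTCH genes, the pathway list and Dhx15, and clusters were named from fixed markers. Named classes were Il2ra-positive immature thymocytes (DN2-3-like), resting CD4 and CD8 double positive thymocytes (resting DP-like), TCR-signalled-like, S phase with high histone genes, NK or innate-like, and myeloid-like. The myeloid-like class had 31 flox and 117 KO cells, too few to compare. Clusters left without a name held 19.1% of flox and 39.6% of KO cells.

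Levels are in CPM, UMIs of the gene scaled to the UMI total of the class. A gene was counted as higher or lower where the intervals of both libraries were apart and the ratio was at least 1.5 in that direction. Over all cells kept, 6 of the 7 genes were higher in KO and none lower, where 12.5% of 15144 genes were higher and 13.7% lower. Dhx15 itself was at 181 CPM in flox and 100.2 in KO, a ratio of 0.553. Hes1 was at 17.5 in flox and 92.2 in KO, a ratio of 5.27 (95% interval 4.91 to 5.66). Notch3 had a ratio of 2.98, Notch1 2.44, Ptcra 2.25, Nrarp 2.23 and Dtx1 2.11, whereas Notch2 had 0.783. The size of these ratios changed when cells were thinned, which gives each cell the same weight, while CPM weights cells by their UMIs. The cause of the change was not tested. With cells thinned to the same UMI number, the Hes1 ratio was 13.0 (10.8 to 15.9). The thinned ratios were 4.13 for Notch3, 2.91 for Notch1, 2.94 for Ptcra, 4.43 for Nrarp, 2.60 for Dtx1 and 0.681 for Notch2. The DN2-3-like class made up 1.27% of flox and 15.7% of KO cells (112 and 1143 cells). It held 66.1% of all Hes1 UMIs in flox and 69.2% in KO. Its share of Notch3 UMIs was 29.1% in flox and 60.4% in KO, and of Ptcra UMIs 15.2% and 51.4%.

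Within the DN2-3-like class most levels were close between genotypes. Of its markers, Il2ra was at 784 in flox and 1020.0 in KO, while the others were lower in KO. Bex6 was at 16.1 and 4.53, Cd44 at 10.5 and 6.66, Erg at 26.7 and 19.5, Spib at 23.1 and 16.4, and Kit at 34.4 and 31.3. Whether the class held the same stages in both libraries was not tested. Its leading genes also held Tcrg-C1 and Tcrg-C2, genes of the gamma receptor chain. Dhx15 itself was at 146.6 and 131.3 in this class, a ratio of 0.896 (0.775 to 1.04); the exons that the KO allele lacks are not stated, so this level does not measure the loss of the protein. Hes1 was at 405 in flox and 406 in KO, a ratio of 1.00 (0.919 to 1.09). Notch1 was at 580.1 and 661.7 (1.14, 1.06 to 1.23), and Notch3 at 163 and 183 (1.12, 0.980 to 1.29). Notch2 was at 16.1 and 18.9, with an interval of 0.760 to 1.88.

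By this rule 1 of the 7 genes was higher in the DN2-3-like class and none was lower, against 2.33% and 1.66% of 11625 genes. That gene was Dtx1, at 75.8 in flox and 114 in KO, a ratio of 1.51 (1.24 to 1.86). At a clustering resolution of 0.5 its ratio was 1.48, and with cells thinned to 2000 UMIs it was 1.33 (0.870 at the lower bound). Ptcra was at 348 and 479 (1.38, 1.26 to 1.51), and Nrarp, a feedback inhibitor of NOTCH, rested on 5 and 77 UMIs (1.87, 0.770 to 5.94). Of 55 other pathway genes with at least 10 UMIs in this class, none met the rule in either direction.

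**Figure D4:**
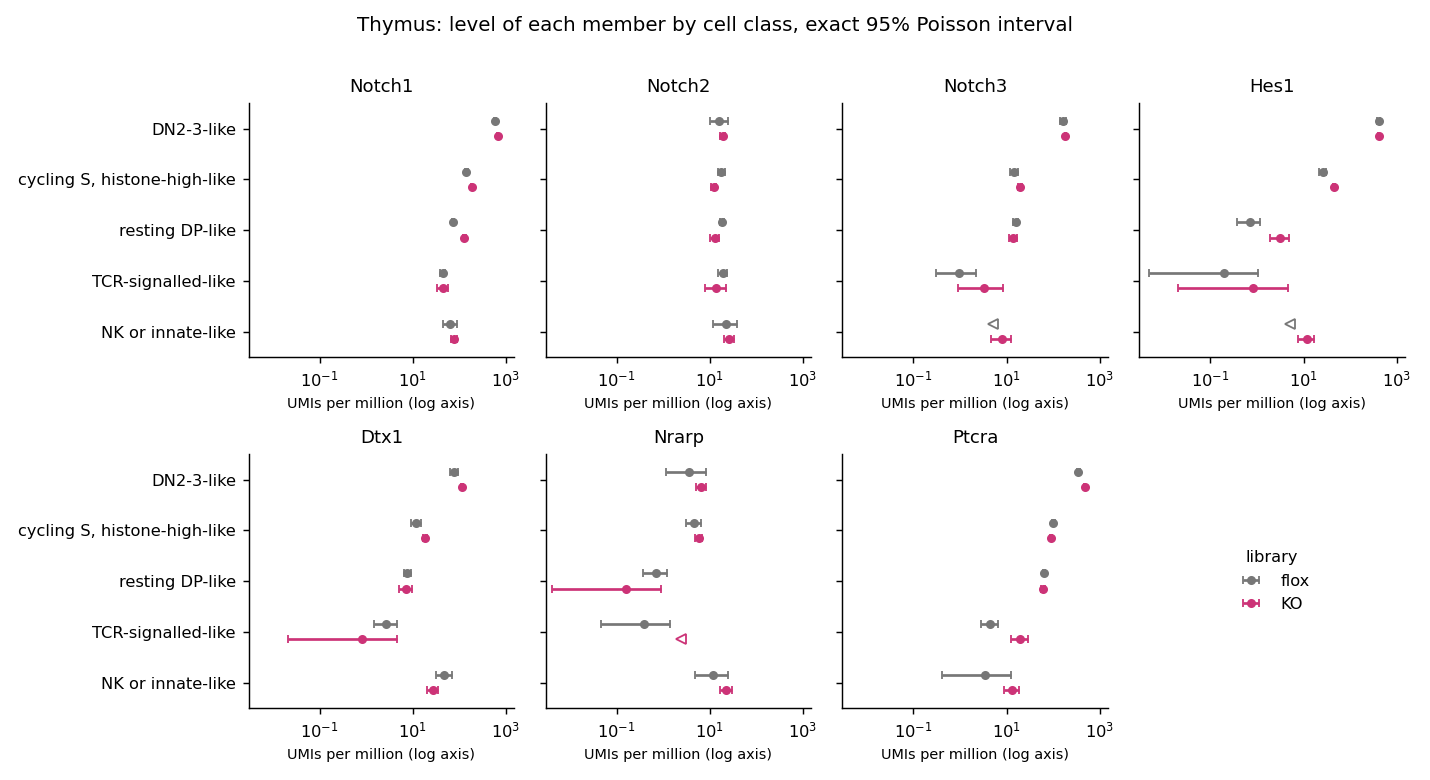
CPM (log axis) of the 7 mouse genes in 5 cell classes of the flox and KO libraries, as points with exact 95% Poisson intervals; open triangles mark the limit of 3 counts where no UMI was seen. Every gene but Notch2 and Nrarp was highest in the DN2-3-like class, where Hes1 was at 405 and 406 in the libraries.

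Levels spanned a wide range between classes. Hes1 was at 0.694 CPM in resting DP-like flox cells and rested on 1 UMI in TCR-signalled-like flox cells. Notch1 spanned a narrower range, from 580.1 in DN2-3-like to 43.7 in TCR-signalled-like flox cells. Notch2 was nearly level, at 16.1 to 22.1 in the 5 classes of the flox library. Nrarp was highest in the NK or innate-like class, at 11.9 in flox and 22.6 in KO, from 7 and 52 UMIs. In flox, 34.7% of Dtx1 UMIs came from cluster 8, an unnamed cluster led by Ccr7 and S1pr1.

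In resting DP-like cells 2 of the 7 genes were higher in KO and none lower, against 10.1% and 4.41% of 12226 genes. Notch1 was at 74.1 in flox and 128 in KO, a ratio of 1.72 (1.57 to 1.88). The KO cells of this class lay mainly in cluster 5 and the flox cells in clusters 0, 1, 3 and 6. Within each of these 5 clusters the Notch1 ratio was above 1, from 1.78 to 3.08, with every interval above 1. Hes1 had a ratio of 4.48 (2.10 to 9.88), from 13 and 19 UMIs. Of these, 17 of the KO UMIs lay in cluster 5, where 83 flox cells held 0. Cluster 6 held 10 of the flox UMIs and 0 of the KO UMIs. No Hes1 ratio could be formed within a cluster. Ptcra had a ratio of 0.964 (0.855 to 1.08) over the class, although its ratio was above 1 in each of the 5 clusters, up to 2.71, with only the interval of cluster 3 above 1. Notch3 and Dtx1 had intervals that included 1, Notch2 was at 0.715 (0.552 to 0.916), and Nrarp had 13 and 1 UMIs.

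The part of free RNA from DN2-3-like cells, which were more numerous in the KO library, was not tested in these values. In resting DP-like KO cells, Il2ra stood at 5.04% of its DN2-3-like level, Hes1 at 0.766%, Notch3 at 7.53% and Notch1 at 19.3%. Il2ra had a ratio of 4.70 (3.93 to 5.63) between KO and flox DP-like cells. In TCR-signalled-like cells of the same libraries the Notch1 ratio was 1.03 with an interval that included 1. Il2ra was at 7.47 CPM in flox and 17.9 in KO in the TCR-signalled-like class, and its part was not tested. Of 52 other pathway genes in resting DP-like cells, 4 were higher (Jag2, Ctbp2, Il2ra and Gata3) and 2 lower (Mfng and Ncstn).

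In the S phase class Hes1 was at 25.6 in flox and 45.1 in KO (1.76, 1.49 to 2.08) and Dtx1 at 11.8 and 18.4 (1.56, 1.22 to 2.01), where 3.04% of genes were higher and 3.12% lower. Il2ra, the DN2-3 marker, was at 52.3 in flox and 129.7 in KO in this class, and its part was not tested. With cells thinned to 2000 UMIs the Dtx1 ratio there was 0.847 (0.419 to 1.85). In TCR-signalled-like cells Ptcra was at 4.41 and 19.6, a ratio of 4.44, from 23 UMIs in 20 of 1169 flox cells and 24 UMIs in 10 of 268 KO cells, against 4.25% of genes higher and 3.88% lower. In NK or innate-like cells no Hes1 UMI was seen in flox, where the exact interval reached up to 6.28 CPM. In KO, 27 UMIs in 10 of 231 cells gave 11.7 CPM, with an interval of 7.74 to 17.1. The intervals were apart, but no ratio could be formed. The KO level was 2.30-fold the limit of 3 counts in flox, 5.11 CPM, which is not a lower bound of the ratio. In this class 2.82% of genes were higher and 2.78% lower. Il2ra was at 10.2 and 98.3 CPM in the same class, and its part was not tested. Over these 5 classes 7 of the 32 gene and class pairs with at least 10 UMIs were higher in KO and none lower, where 4.61% of 56137 such pairs over all genes were higher and 3.18% lower. With every cell thinned to 2000 UMIs 4 pairs were called. Unnamed clusters stood outside this count and went both ways by the rule. In cluster 11, with 42 flox and 1265 KO cells, Hes1 (0.262), Dtx1 (0.262) and Ptcra (0.496) were lower in KO. Dtx1 was also lower in cluster 8 (0.261, from 269 and 6 UMIs). Hes1 and Notch3 were higher in cluster 2. Hes1 was higher in cluster 7, from 1 flox and 17 KO UMIs. Notch1 was higher in cluster 14, from 4 and 45 UMIs in only 31 flox and 75 KO cells. The shares over all genes were not computed for these clusters.

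**Figure D5:**
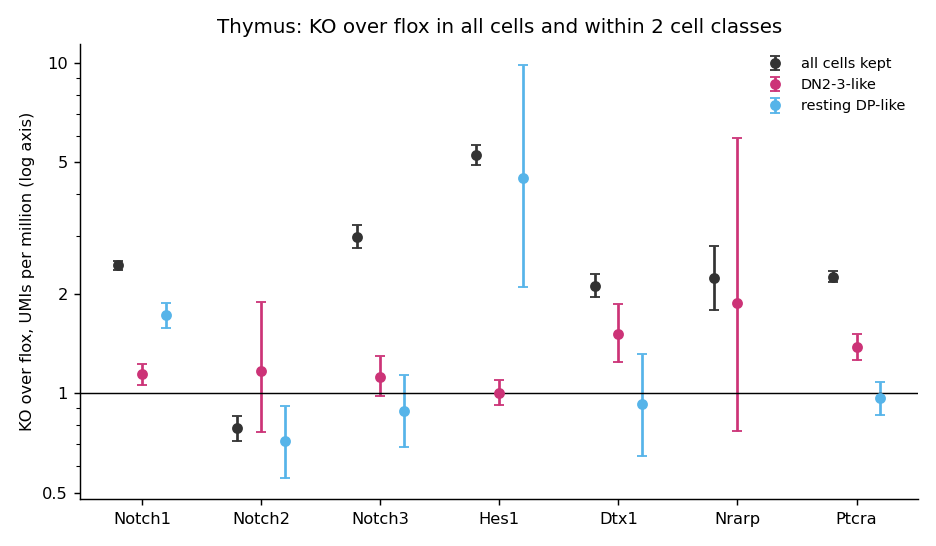
Ratio of KO to flox CPM (log axis) for the 7 mouse genes over all cells kept, within DN2-3-like cells and within resting DP-like cells, with exact 95% intervals for counting error; no ratio is drawn where a library had 3 UMIs or fewer. Hes1 had a ratio of 5.27 over all cells and 1.00 within the DN2-3-like class, and Notch1 kept a ratio of 1.72 within the resting DP-like class. With cells thinned to the same UMI number, these ratios were 13.0, 1.22 and 1.71.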

How the data were processed

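CUTLL1 RNA was read as poly(A)+ libraries, RIP RNA after removal of ribosomal RNA, and thymocytes in 10x droplets (per the labels' protocols). The submitters' processing notes name STAR, DESeq2, Cell Ranger 6.0.2 and Scanpy 1.7.1, with hg38, hg19 and mm10 among the builds, and give none of them a role; whether counting used strand is not stated.

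The authors deposited RPKM values for the hairpin experiment, which resolved into whole reads for all 19848 genes (tolerance 1e-05 reads). For ciclopirox the authors deposited a normalised signal, in which each gene count is divided by a library factor; every value resolved into a whole read number within 0.01. Beside it stand the authors' log2 fold changes and p-values, of which the fold changes are printed. The deposited peak list holds for each peak a fold enrichment ratio, a score, an FDR and a p-value, without naming the peak caller. The deposited thymus matrices hold UMI counts.

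Genes with an RPKM of at least 1, or a normalised value of at least 10, in at least 3 libraries were fitted with limma 3.58.1 (empirical Bayes with trend, R 4.3.3) on log2(value + 1), over all 9 hairpin libraries and the 6 of the ciclopirox experiment. edgeR 4.0.16 and DESeq2 1.42.0 ran on the recovered reads as alternatives. Nothing in the labels says that cultures were separate; p-values therefore cover only the spread among libraries, which may be technical. Ciclopirox columns carry their group and a number not tied to a sample, and libraries are called by that number. Same-numbered libraries did not all deviate together in either experiment, so no block was used. The fits were tested on simulated data.

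Peaks and promoters were read against RefSeq GRCh38.p14; a peak counted with at least 50% of it inside a gene span, on either strand. Thymus cells with at least 500 genes and at most 10% mitochondrial UMIs were clustered with scanpy 1.11.5 (2000 variable genes, 30 components, Leiden resolution 1). A class took a marker score of at least 1 with a margin of 0.75 on the log2 scale, set after seeing the data. Scrublet marked no cell in either library, so it did not work and doublets were kept. Ratios needed more than 3 UMIs in each library. The shares over all genes, the pathway counts and the gene and class pairs took genes with at least 10 UMIs over both libraries.

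The 8 genes, the pathway list, the markers and the rules for naming genes were chosen with earlier results of these data known. Named pathway genes were up to 4 per role with the widest difference among those called, of which the text gives some.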

Additional observations from a re-analysis of the deposited data

Results flagged for a closer look

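In 5 of the 6 genes of the hairpin table the response differed between the DHX15 hairpins, by the limma test of shDHX15-2 against shDHX15-1 itself. Over all genes tested 23.2% were higher and 37.9% lower in the same test. The log2 difference was -1.56 for HES4, -0.82 for NOTCH3, -0.46 for HES1, -0.30 for NOTCH1 and 0.51 for DTX1. Both hairpins share the shGFP control, and DHX15 RNA did not differ between them past the test.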

How the results depend on the processing

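For the hairpin results no alternative changed the direction of a gene, and the number of the 8 genes called stayed within 1.5 times in every setting, with 6, 5 to 6, 6 and 5 genes called when 1 library was left out for shDHX15-1, shDHX15-2, the hairpin mean and the hairpins compared. With the replicate block these counts were 6, 6, 6 and 5, the gain being HES4 with shDHX15-2 (limma adjusted p = 0.00879). With ciclopirox 4 genes instead of 7 were called after quantile normalisation, and 3 to 7 when 1 library was left out; the log2 difference of NOTCH1 reversed to 0.0843 after quantile normalisation, and the cause was not tested. The ciclopirox columns end in numbers whose libraries did not all deviate together (correlations 0.105, -0.108 and 0.163), and the replicate block on them called 7 genes and changed no call. These counts include PTCRA. Thinning to 2000 UMIs gave 4 gene and class pairs instead of 7 in the thymus, where fewer UMIs enter, and moved the DN2-3-like ratios of Notch3 to 0.927 and Hes1 to 1.22. The same thinning moved the Hes1 ratio over all cells kept from 5.27 to 13.0. Leaving out the 5% of cells with the highest doublet scores, an alternative chosen after seeing the data, gave 7 pairs. Scrublet doublets could not be left out, and without a filter on cells no DN2-3-like cluster was named. The RIP result was 1 gene under each overlap and fold setting.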
